A study of Homo sapiens with 18 samples.

Results

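The zinc-finger gene cluster on the long arm of chromosome 19, at 19q13.4, was examined through 37 of its genes, chosen by symbol from the cluster's zinc-finger genes. All 37 had a row in the gene tables of both cell lines, which hold 23686 symbols each. RNA was sequenced from OCI-Ly1 and TMD8, human diffuse large B-cell lymphoma lines of the germinal-center and the activated B-cell kind. The vehicle was 0.01% DMSO and the doses of JIB-04 were 150 and 500 nM, which makes 6 groups of 3 libraries over both lines. JIB-04 is a small-molecule inhibitor of the Jumonji-domain histone demethylases, enzymes that remove methyl groups from histone lysines. The title of the series sets the work in heterochromatin as a weak point of lymphoma. No genetic change was made in either line, the labels name no treatment time, and OCI-Ly1 grew in IMDM and TMD8 in RPMI 1640, so line and medium differed together. The labels call the libraries technical triplicates without naming separate cultures, so the p-values measure the spread between these libraries, which may be technical.

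OCI-Ly1 libraries held 17579732 to 32651115 estimated counts, TMD8 libraries 9550092 to 20509500, and no pair of libraries agreed within sampling noise (chi-square per degree of freedom 1.62 to 10.9). All 6 B-cell markers were above 10 CPM in both lines, with sums of 1106 to 1333 CPM in OCI-Ly1 and 2311 to 2916 in TMD8. Sums of the markers of T cells (up to 22.5 CPM), myeloid cells (up to 3.59) and erythroid cells (up to 1.64) were low, and those of epithelium ran from 19.9 to 30.4 CPM in OCI-Ly1 and 77.1 to 89.4 in TMD8. Some sums moved with dose. The 3 fibroblast markers summed to 3.81 to 4.37 CPM in TMD8 with DMSO, to 11.5 to 15.8 at 150 nM and to 29.8 to 31.3 at 500 nM, nearly all of it COL1A1, while in OCI-Ly1 they stayed at or under 0.232. T-cell markers in OCI-Ly1 went from 18.8 to 22.5 CPM with DMSO to 8.40 to 9.42 at 500 nM, and B-cell markers in TMD8 from 2747 to 2916 CPM to 2311 to 2355. Their part in the results was not tested. The first TMD8 DMSO library stood apart from the other 2 of its group (10.3 and 10.9 against 1.90).

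Most genes of this cluster encode KRAB zinc-finger proteins, DNA-binding repressors that arose by repeated duplication of neighbouring genes. Their zinc fingers bind set DNA sequences, often in transposable elements. The KRAB domain recruits TRIM28 (KAP1), which brings in the histone methyltransferase SETDB1, heterochromatin protein 1 and the NuRD deacetylase complex. Such genes are usually transcribed at low levels, and clusters of them on chromosome 19 are themselves known to carry H3K9me3, the mark of heterochromatin that SETDB1 writes.

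The duplications show in the promoters, and 4 are printed because 3 of them look alike while the genes they start differed widely between the lines, and the fourth belongs to the gene with the clearest rise under JIB-04. RefSeq promoter sequences (build GRCh38.p14) matched 31 of the 37 genes; ZNF665, ZNF610, ZNF600, ZNF649, ZNF28 and ZNF480 are named only. Each sequence below holds the 250 bases before the start of transcription, read 5′ to 3′ on the gene's own strand, with every CG in capitals. That of ZNF808 lies at chr19:52527418-52527667 on the plus strand, that of ZNF845 at chr19:53333499-53333748 on the plus strand, that of ZNF611 at chr19:52735045-52735294 on the minus strand and that of ZNF836 at chr19:52171622-52171871 on the minus strand.
ZNF808: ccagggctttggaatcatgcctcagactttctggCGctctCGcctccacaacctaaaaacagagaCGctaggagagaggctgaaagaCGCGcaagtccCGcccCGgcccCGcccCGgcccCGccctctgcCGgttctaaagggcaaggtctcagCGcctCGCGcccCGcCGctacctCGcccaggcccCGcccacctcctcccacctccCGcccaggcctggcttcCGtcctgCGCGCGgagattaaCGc
ZNF845: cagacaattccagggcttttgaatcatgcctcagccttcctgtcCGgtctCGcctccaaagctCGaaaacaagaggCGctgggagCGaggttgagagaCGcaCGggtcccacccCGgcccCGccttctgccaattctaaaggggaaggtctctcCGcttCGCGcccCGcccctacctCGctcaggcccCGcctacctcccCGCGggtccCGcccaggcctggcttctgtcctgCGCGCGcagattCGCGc
ZNF611: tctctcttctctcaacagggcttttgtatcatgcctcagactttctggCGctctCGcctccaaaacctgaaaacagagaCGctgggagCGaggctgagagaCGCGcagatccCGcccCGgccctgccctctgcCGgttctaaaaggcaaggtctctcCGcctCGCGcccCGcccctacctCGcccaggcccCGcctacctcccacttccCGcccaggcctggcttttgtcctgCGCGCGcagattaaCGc
ZNF836: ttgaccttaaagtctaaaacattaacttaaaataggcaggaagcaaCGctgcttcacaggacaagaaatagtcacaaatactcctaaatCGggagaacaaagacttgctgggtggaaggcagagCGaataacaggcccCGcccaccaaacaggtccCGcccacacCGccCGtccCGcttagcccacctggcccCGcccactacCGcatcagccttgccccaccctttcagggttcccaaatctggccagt
Aligned end to end, the promoter of ZNF611 shared 82.7% of alignment columns with that of ZNF845 and 81.8% with that of ZNF808, against a median of 48.2% over the 465 pairs of the 31 promoters. ZNF836 shared 49.5% with ZNF611. CG, searched as these 2 letters, which read the same on both strands, occurred 24 times in the window of ZNF808, 23 times in ZNF845, 20 times in ZNF611 and 10 times in ZNF836. The median of the 31 genes was 18, from 10 to 26, against 11 over 35116 RefSeq promoters of the same length. Each of the 31 genes entered with its farthest upstream start, while the 35116 hold every listed start of every gene. For 27 of the 31, bases just after a listed start were found in a transcript of the same gene. All 31 held at least 1 CG, as did 93.9% of those 35116.

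In vehicle-treated cells the cluster was broadly transcribed in OCI-Ly1 and largely quiet in TMD8. Levels are compared between genes in TPM, the unit of transcript abundance that divides by transcript length. With DMSO, 30 of the 37 genes reached a mean of 1 TPM in OCI-Ly1 and 11 did in TMD8. In such bulk libraries fewer cells that express a gene and less RNA per cell cannot be told apart. The median gene stood at 8.54 TPM in OCI-Ly1 and at 0.499 TPM in TMD8, and the 37 genes together summed to 305 to 347 TPM per OCI-Ly1 library and 95.2 to 118 TPM per TMD8 library. On the CPM scale used further on, here scaled by TMM within each line, the same sums were closer, at 897 to 974 against 569 to 600.1. The median of all genes lay 0.61 higher in OCI-Ly1 on log2(TPM + 1). In OCI-Ly1 the 5 most abundant genes (ZNF480, ZNF83, ZNF766, ZNF761 and ZNF160) held 33.2% of the TPM sum. In TMD8 the 5 most abundant (ZNF480, ZNF766, ZNF611, ZNF614 and ZNF615) held 82.5%.

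**Figure D1:**
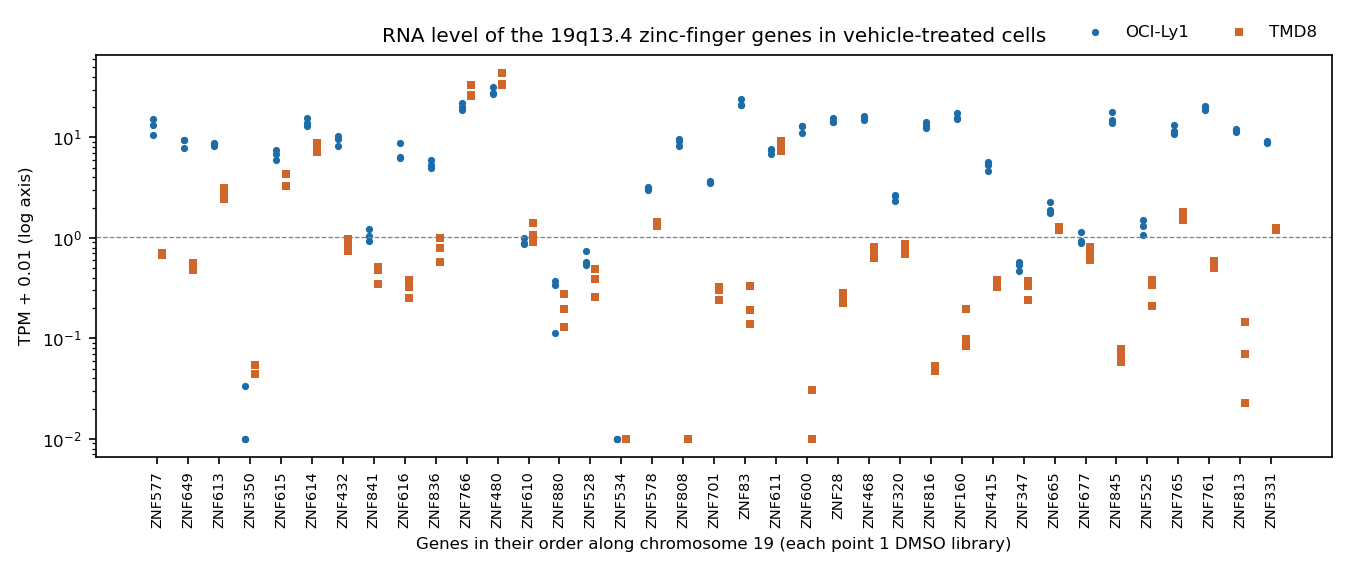
Level in TPM (plus 0.01, log axis) of the 37 genes in each DMSO library, ordered along the chromosome; circles are OCI-Ly1 libraries, squares are TMD8 libraries, and the dashed line marks 1 TPM. The OCI-Ly1 points lie above the line for 30 genes on average, while the TMD8 points spread from 0 (ZNF808, ZNF534) to 37.1 TPM (ZNF480).

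ZNF480 had the highest mean level in both lines. Among DMSO libraries its TPM was 28.0, 27.2 and 31.8 for OCI-Ly1, and for TMD8 43.8, 33.8 and 33.6. The next gene in order did not overlap it in either line: ZNF83 stood at 22.1 ± 1.84 TPM in OCI-Ly1 and ZNF766 at 28.7 ± 4.10 TPM in TMD8 (SD, n = 3, as for every mean here). Ranks 5 to 14 in OCI-Ly1, from ZNF160 at 16.1 TPM to ZNF813 at 11.7 TPM, overlapped from neighbour to neighbour, so their order is not resolved. At the low end, ZNF534 had no count in any TMD8 library and at most 0.124 CPM (the count of a gene relative to its library total, scaled by TMM) in OCI-Ly1. ZNF350, which encodes a repressor that binds BRCA1, reached at most 0.160 CPM in OCI-Ly1 and 0.307 in TMD8. Both genes were too low to test in either line.

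On the CPM scale, which compares 1 gene across libraries, 35 of the 37 genes could be tested between the lines in a fit of all 18 libraries. A gene was called where the quasi-likelihood test of edgeR gave an adjusted p under 0.05. With DMSO, 22 genes were called higher in OCI-Ly1 and 6 lower. That is 80.0% of the 35, against 76.7% of all 16604 genes tested, a share near the background. The direction was uneven: 62.9% of its genes were called higher in OCI-Ly1 against 37.8% of all genes, and 17.1% lower against 39%. The median log2 difference was 1.90 over the 35 genes and -0.02 over all genes tested. Libraries of the 2 lines did not overlap for 27 of the 35, where the background is 76.4%. Another scaling changed the split, to 30 higher and 2 lower on log2(TPM + 1) and to 21 higher and 10 lower once each library was centred on its median. Of all 16604 genes, 11296 were called higher and 2906 lower on the first scale, and 6380 and 7594 on the second. On those scales the median of all genes stood at 0.61 and -0.11, and that of the cluster at 1.85 and 1.12.

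The widest gaps belonged to 7 genes whose TMD8 libraries held almost no reads. ZNF808, a repressor of MER11 retroviral elements that is required for pancreas development, had CPM of 21.0, 25.2 and 22.8 in OCI-Ly1 with DMSO. It had no count in any of the 3 TMD8 DMSO libraries, against 1525 counts summed over the 3 of OCI-Ly1. Taking 3 counts over the TMD8 group as the limit that a count of 0 allows, ZNF808 was at least 373-fold higher in OCI-Ly1.
ZNF600 had 1573 counts against 1, a ratio of 1154 with a 95% counting interval from 207 to 45594, and ZNF816 had 1764 against 8, a ratio of 162 (interval 81.9 to 375). The same ratio was 136 for ZNF845 (interval 86.9 to 226), 81.1 for ZNF813 (53.9 to 128), 67.6 for ZNF160 (49.3 to 95.2) and 51.2 for ZNF83 (38.4 to 69.9). These intervals cover counting error only. Single TMD8 DMSO libraries weighed on several of these genes. The fitted log2 difference of ZNF813 moved from 6.33 to 7.25 without the second and to 5.90 without the first. That of ZNF160 moved from 6.07 to 6.67 without the third and to 5.81 without the first. The only count of ZNF600 lay in the first. In the gene order of RefSeq (GRCh38.p14) the 7 genes lie between place 18 (ZNF808) and place 36 (ZNF813) of the 37, interleaved with others. Short sequences are shared between cluster genes, which can move reads between them: 58.7% of the 31-base words in the transcripts of ZNF808 and 64.9% of those of ZNF600 occur in no other gene of GENCODE release 29, where the median of the 37 genes is 88.3%.

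ZNF611, at place 21 within that stretch, went the other way. Among DMSO libraries its CPM, scaled within each line, was 23.9, 26.8 and 25.9 for OCI-Ly1, and for TMD8 52.8, 50.8 and 48.5, with no overlap. Its promoter is nevertheless close in sequence to those of ZNF808 and ZNF845 printed above. In the fit of all 18 libraries its mean with DMSO was 24.6 CPM in OCI-Ly1 and 53.1 in TMD8. The log2 difference, OCI-Ly1 minus TMD8, was -1.11 (SE 0.07, edgeR adjusted p = 1.2e-14). In TPM the same gene stood at 7.33 ± 0.482 in OCI-Ly1 and 8.12 ± 1.03 in TMD8, and the call was lost on log2(TPM + 1) and log2(TPM + 0.1).
ZNF480 (-1.32, SE 0.07) and ZNF766 (-1.46, SE 0.06) were lower in OCI-Ly1 under every alternative run. For ZNF766, CPM over the 18-library fit averaged 44.5 ± 2.58 in OCI-Ly1 and 122 ± 7.70 in TMD8. ZNF610 (-1.28), ZNF677 (-0.50) and ZNF665 (-0.33) completed the 6. ZNF610 stood at -0.14 and was not called on log2(TPM + 1), and the other 2 changed sign on the uncentred TPM scales and lost their calls without any 1 of 5 (ZNF677) or 10 (ZNF665) of the 18 libraries.

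Of the 22 genes called higher in OCI-Ly1, 21 kept the call under all 7 other settings and without any single library. The exception was ZNF525, which lost it on the centred scale. Between the extremes, ZNF28 differed by 4.90 on the log2 scale (51.0 ± 1.04 against 1.68 ± 0.306 CPM), ZNF761 by 4.20 (62.2 ± 2.92 against 3.34 ± 0.379 CPM) and ZNF468 by 3.42 (46.3 ± 1.91 against 4.29 ± 0.817 CPM). For ZNF468, 34.9% of 31-base words are found in no other gene. Promoters of the 17 genes with at least 1 TPM in OCI-Ly1 alone held a median of 20 CG (10 to 26). The median was 17 (14 to 20) in the 8 with at least 1 TPM in both lines and 18 (14 to 23) in the 6 under 1 TPM in OCI-Ly1. These ranges overlapped, and 44 of the 465 promoter pairs were at least 70% identical, so the promoters are not all separate observations. A link to expression was not tested.

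Under JIB-04 a smaller share of these genes than of all tested genes was called at 500 nM in both lines. At 500 nM in OCI-Ly1, 6 of the 35 tested genes rose and 6 fell against DMSO. That is 34.3%, below the 53.6% of all 15638 genes tested in that line. The median log2 change was 0.02 over the 35 and -0.003 over all genes, and the median size of a change, whatever its sign, was 0.130 against 0.309. For OCI-Ly1 at 150 nM this size was 0.103 against 0.0902. In TMD8 it was 0.216 against 0.225 at 150 nM and 0.239 against 0.345 at 500 nM. These genes were not measured less precisely than others in OCI-Ly1: their median level was 22.0 CPM against 21.1 over all tested genes, and their median standard error 0.086 against 0.092 on the log2 scale. No cluster gene was called in OCI-Ly1 at 500 nM with a log2 change of 1 or more, where 8.88% of all tested genes were.

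ZNF836 had the largest rise. In OCI-Ly1 the DMSO libraries had 13.6, 12.9 and 14.9 CPM, and 500 nM gave 20.7, 20.9 and 19.6 CPM. All 3 treated libraries lay above all 3 DMSO libraries, and the log2 change was 0.56 (SE 0.09, edgeR adjusted p = 6.4e-05).
ZNF613 went from 15.1, 14.7 and 14.8 CPM to 18.9, 17.5 and 19.3, again without overlap, a log2 change of 0.32 (SE 0.08, edgeR adjusted p = 0.0038). ZNF331, an imprinted gene, went from 29.1, 30.2 and 29.1 CPM to 37.2, 32.3 and 35.1, a log2 change of 0.25 (SE 0.07, edgeR adjusted p = 0.0068). Its lowest treated library was above its highest DMSO library.
ZNF616 had 15.1, 15 and 19.8 CPM with DMSO, against 21.4, 18.9 and 21.1 when treated, and ZNF83 had 47.0, 47.3 and 52.2 against 59.3, 51.7 and 58.9. The groups overlapped in both, at the third DMSO library and the second treated one. Their log2 changes were 0.30 (SE 0.10, edgeR adjusted p = 0.023) and 0.21 (SE 0.08, adjusted p = 0.024). ZNF649 was the sixth gene called, at 0.21.

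Among the 6 that fell in OCI-Ly1, 3 were scarce to begin with. ZNF528 went from 2.26, 1.82 and 1.57 CPM with DMSO to 1.37, 0.736 and 1.32 at 500 nM, a log2 change of -0.71 (SE 0.28, edgeR adjusted p = 0.041). ZNF841 went from 3.65, 2.82 and 3.03 CPM to 2.0, 1.78 and 2.27, a change of -0.65 (SE 0.20, adjusted p = 0.0099). ZNF347 went from 1.86, 2.05 and 1.57 CPM to 1.28, 1.16 and 1.09, a change of -0.62 (SE 0.25, adjusted p = 0.040).
In all 3 the treated libraries lay below the DMSO libraries. ZNF320 fell from 12.5, 11.5 and 12.6 CPM to 9.33, 8.52 and 9.12, a change of -0.44 (SE 0.10, edgeR adjusted p = 0.0012), and ZNF578 from 16.5, 16.2 and 16.5 CPM to 11, 14 and 12.8, a change of -0.39 (SE 0.10, adjusted p = 0.0033). Only 6.96% of the 31-base words of ZNF320, and 49.8% of those of ZNF578, occur in no other gene. Reads may thus be divided among the genes that share the other words.
The sixth was ZNF480, which fell from 104, 103 and 114 CPM to 88.2, 86.9 and 98.3, a change of -0.23 (SE 0.08, adjusted p = 0.020) without overlap.

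Without scaling beyond library size the OCI-Ly1 counts at 500 nM were 11 higher and 3 lower, on log2(TPM + 1) 11 and 2, and on the centred scale 2 and 11. All 15638 genes tested gave 5472 and 3080, 5739 and 2240, and 2902 and 6079 in that order. The median of all tested genes moved to 0.08, 0.10 and -0.12 on those scales. ZNF836, ZNF613 and ZNF320 kept their calls in all of these and without any single library. Without the first DMSO library the calls of ZNF347, ZNF528, ZNF616, ZNF83 and ZNF841 were lost, without the second those of ZNF347, ZNF528, ZNF616, ZNF649 and ZNF83, and without the third those of ZNF480 and ZNF649. Without the first 500 nM library those of ZNF331, ZNF347, ZNF480, ZNF616, ZNF649 and ZNF83 were lost, without the second those of ZNF347, ZNF480 and ZNF528, without the third those of ZNF347, ZNF616 and ZNF83, and without the second 150 nM library that of ZNF649. With DESeq2 those of ZNF347, ZNF528 and ZNF649 were lost, and ZNF347 kept its call in 1 of the 7 other settings, the centred one. ZNF480 lost its call with library size alone and on both uncentred TPM scales.

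**Figure D2:**
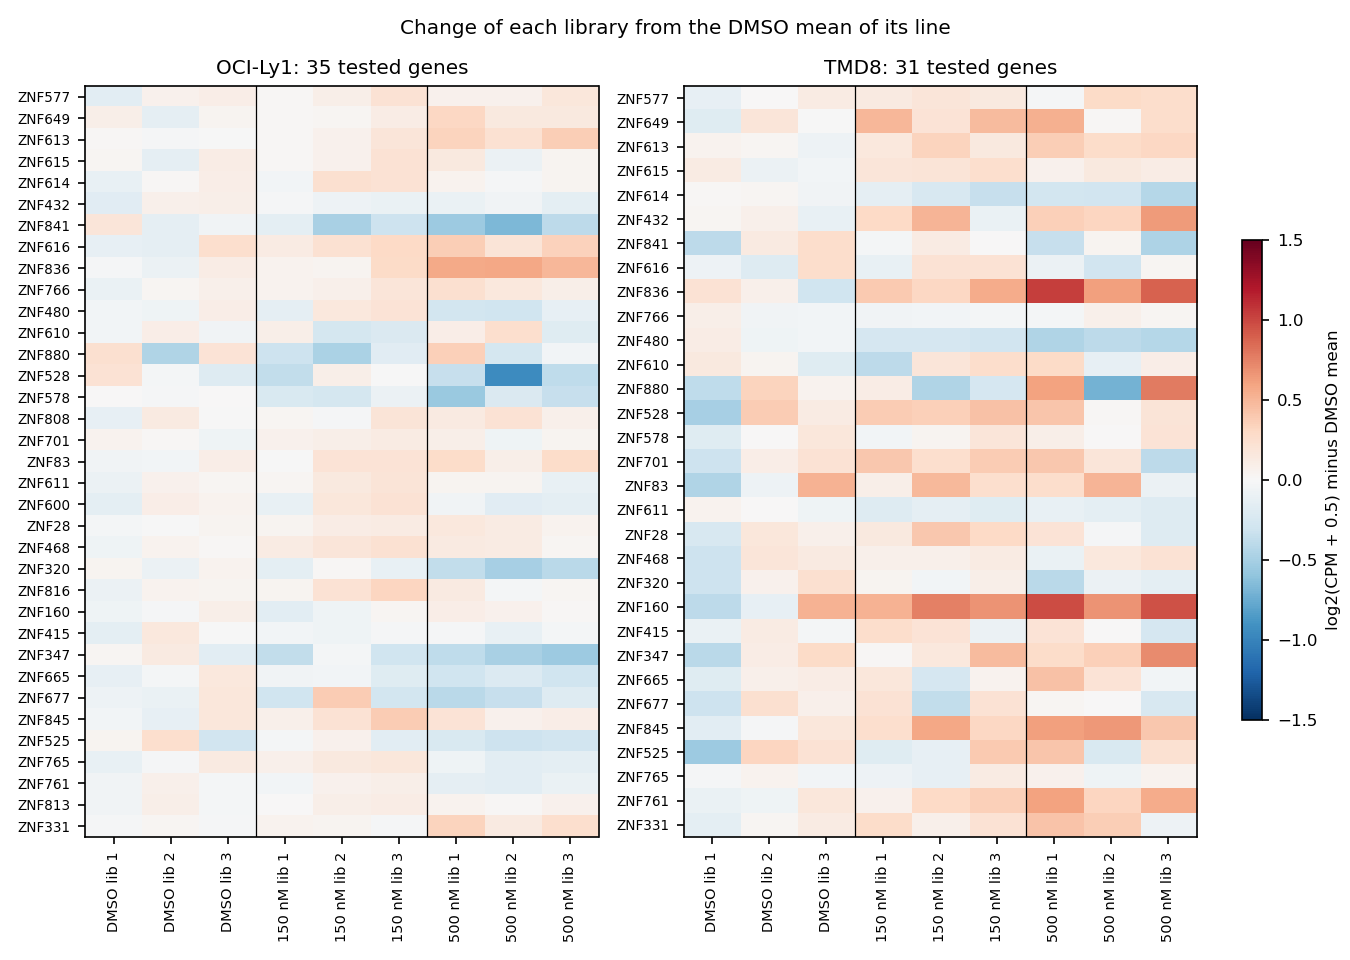
Difference of log2(CPM + 0.5) from the mean of the DMSO libraries of the same line, for the 35 genes tested in OCI-Ly1 and the 31 tested in TMD8, in chromosome order; columns are libraries, red is higher and blue is lower. Most cells are pale, and ZNF836 is red in all 500 nM libraries of both lines.

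At 150 nM in OCI-Ly1, edgeR called 0 of the 35 genes, where 0.889% of all tested genes were called. An unadjusted p under 0.05 was reached by 3 of them, or 8.57%, against 10.2% of all genes. DESeq2 also called 0, and the smallest adjusted p by edgeR was 0.29, for ZNF468. ZNF836 stood at 14.3, 14.2 and 16.9 CPM, overlapping its DMSO libraries. Against 150 nM, 500 nM gave 3 genes higher (ZNF836, ZNF613, ZNF331) and 4 lower (ZNF480, ZNF320, ZNF761, ZNF765), 20.0% of the 35 against 46.2% of all genes. ZNF761 and ZNF765 fell there from 66.2 ± 3.06 to 58.9 ± 1.11 CPM and from 46.6 ± 1.56 to 38.8 ± 1.36 CPM. Both were called in neither dose against DMSO.

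In TMD8, 31 of the 37 genes could be tested. ZNF350, ZNF534, ZNF600, ZNF808, ZNF813 and ZNF816 had too few reads. At 500 nM, 6 genes rose and 3 fell against DMSO, 29% of the 31 where 60.7% of all 15363 genes tested were called. At 150 nM, 3 rose and 3 fell, 19.4% against 44.2%. The median log2 change at 500 nM was 0.13, against 0.04 over all genes. Without the first DMSO library that median was 0.0093, with 4 genes higher and 3 lower, without the third it was 0.23, and on log2(TPM + 1) it was -0.07. Here the cluster was also measured less precisely: its median level was 3.36 CPM against 20.9, and its median standard error 0.20 against 0.087 on the log2 scale, so a change of a given size was harder to detect than in a typical gene.

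The most abundant gene fell at both doses. ZNF480 went from 265, 233 and 237 CPM in the DMSO libraries to 205, 206 and 199.9 under the low dose, 150 nM, then 179, 186 and 181 under 500 nM. The 3 groups did not overlap, and the log2 change against DMSO was -0.27 (SE 0.05, edgeR adjusted p = 0.00033) for the low dose, while 500 nM gave -0.43 (SE 0.05, adjusted p = 1e-06). The step from 150 to 500 nM was also called (-0.16, edgeR adjusted p = 0.026), and was lost without any one of 5 of the 6 libraries compared, the exception being the third at 150 nM.
ZNF614 fell from 52.2, 52.8 and 49.95 CPM to 47.2, 43.5 and 40.6 under 150 nM, then 42.5, 42.1 and 38.4 under 500 nM, a log2 change of -0.33 (SE 0.07, edgeR adjusted p = 0.00030) at the higher dose. Both treated groups lay below the DMSO group and overlapped each other. ZNF611 fell from 52.8, 50.8 and 48.5 CPM to 46.8, 45.9 and 44.4 at 500 nM, a change of -0.15 (SE 0.06, edgeR adjusted p = 0.032), and that call was lost without the first or second DMSO, the third 150 nM, or the second or the third 500 nM library.

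ZNF836 rose in TMD8 as it did in OCI-Ly1, from a lower starting level. Its CPM was 4.19, 3.76 and 2.77 with DMSO, 4.79, 4.49 and 5.41 under 150 nM, then 7.78, 5.69 and 6.96 under 500 nM. The 3 groups did not overlap. The log2 change was 0.48 (SE 0.18, edgeR adjusted p = 0.038) for the low dose. For 500 nM it was 0.94 (SE 0.18, adjusted p = 0.00016), which on the CPM scale brought TMD8 to 52.5% of the level of OCI-Ly1 with DMSO, from 28.2%. In TPM the gap was wider: ZNF836 in TMD8 went from 0.780 ± 0.218 to 1.14 ± 0.156, where OCI-Ly1 with DMSO had 5.39 ± 0.535.
ZNF613 rose from 8.89, 8.69 and 8.05 CPM to 11.1, 10.5 and 10.7 at 500 nM, a change of 0.34 (SE 0.10, edgeR adjusted p = 0.0090) without overlap on this scale, though on log2(TPM + 1) it stood at -0.0279. ZNF761 rose from 2.92, 3.03 and 3.62 CPM to 5.07, 4.11 and 4.91, a change of 0.55 (SE 0.17, edgeR adjusted p = 0.0099), and ZNF432 from 3.05, 3.14 and 2.72 CPM to 3.95, 3.82 and 4.91, a change of 0.50 (SE 0.20, adjusted p = 0.038). In both, each treated library was above each DMSO library.

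ZNF160, which has been described as a repressor of TLR4, showed the largest called log2 change of the cluster in either line. Its CPM in TMD8 was 0.381, 0.561 and 1.16 with DMSO, 1.16, 1.45 and 1.34 under 150 nM, then 1.78, 1.35 and 1.74 under 500 nM. The third DMSO library sat just under the 150 nM group, and all 500 nM libraries lay above the DMSO libraries. The log2 change at 500 nM was 1.15 (SE 0.33, edgeR adjusted p = 0.0063), on 39 counts summed over the DMSO group and 62 over the 500 nM group. It was 0.88 without the first DMSO library and 1.75 without the third. On log2(TPM + 1) it stood at 0.12 and was not called. ZNF845 rose similarly, by 1.07 (SE 0.38, edgeR adjusted p = 0.020), from 0.254, 0.336 and 0.453 CPM to 0.791, 0.823 and 0.614, on 19 and 29 counts.
These rises left both genes far below their OCI-Ly1 level: at 500 nM ZNF160 in TMD8 stood at 3.22%, and ZNF845 at 1.52%, of the mean CPM of OCI-Ly1 with DMSO. ZNF808, ZNF600, ZNF816 and ZNF813 had too few reads in TMD8 for a test of their change. Their TMD8 counts summed over the 3 libraries were 0, 1 and 1 for ZNF808 (DMSO, 150 nM, 500 nM), 1, 0 and 2 for ZNF600, 8, 12 and 7 for ZNF816 and 23, 25 and 21 for ZNF813. For ZNF808 at 500 nM the single count over 3 libraries has an upper 95% limit of 0.149 CPM (exact Poisson, counting error only).

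On log2(TPM + 1) the TMD8 counts at 500 nM were 1 higher and 7 lower, and the median of all tested genes moved from 0.04 to -0.22. Of all 15363 genes tested, 1751 were called higher there and 7581 lower. ZNF480, ZNF614 and ZNF836 kept their 500 nM calls under all 7 settings and without any single library, whereas DESeq2 did not call ZNF845, ZNF432 or ZNF611, and ZNF845 was also lost without the low-count filter and on both uncentred TPM scales. ZNF761 lost its call without the first 500 nM library, ZNF845 without the first or second library of either group, and ZNF432 without any DMSO library or the first or the third 500 nM library. At 150 nM the call of ZNF160 was lost without any library but the third DMSO one, and that of ZNF836 without any 1 of 5, those of ZNF614 and ZNF611 without the third 150 nM library and that of ZNF615 without the second or the third DMSO library, and DESeq2 called none of the 3 rises (ZNF160, ZNF836, ZNF615).

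**Figure D3:**
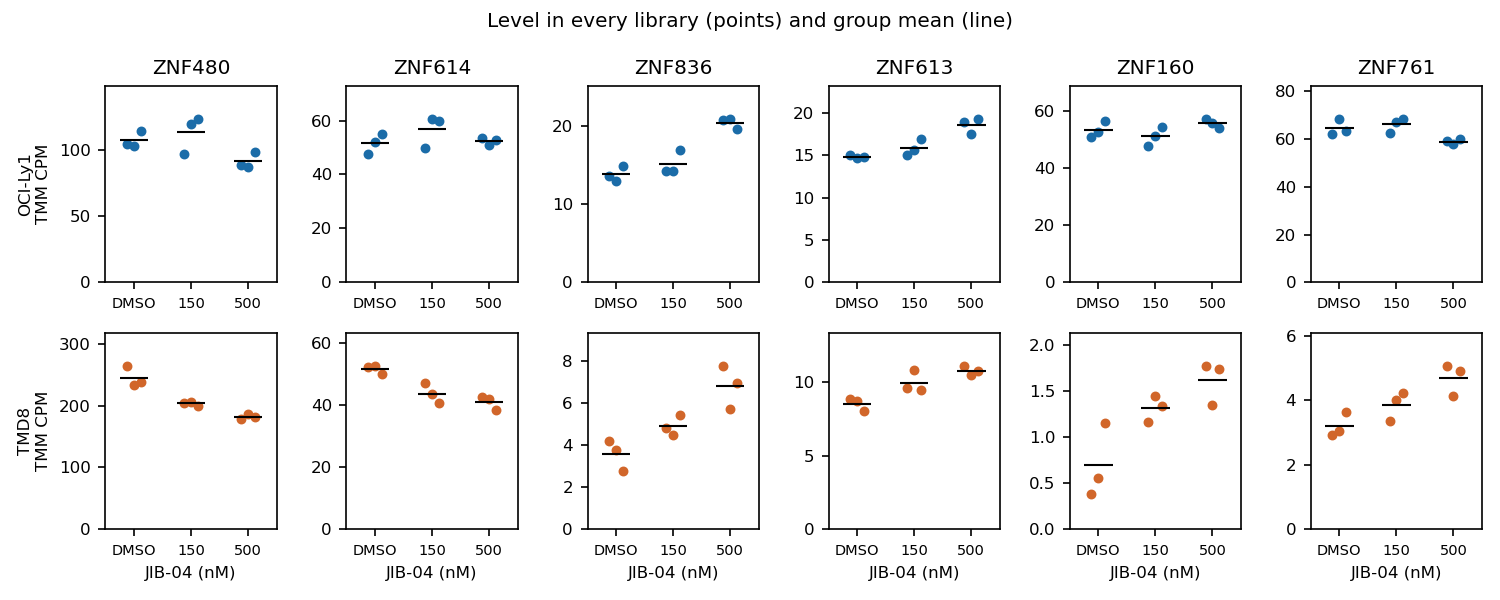
TMM-scaled CPM of 6 genes in every library (points) with the group mean (line), by JIB-04 dose, in OCI-Ly1 (top row) and TMD8 (bottom row); each axis starts at 0. ZNF836 steps up in both lines. In TMD8 ZNF480 steps down with dose, and ZNF614 is lower at both doses, which overlap each other. ZNF160 and ZNF761 rise in TMD8 from levels of 0.70 and 3.19 CPM.

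At 500 nM, ZNF836 and ZNF613 were called higher in both lines, ZNF480 was called lower in both, and no gene was called in opposite directions. On both uncentred TPM scales the call of ZNF480 in OCI-Ly1 and that of ZNF613 in TMD8 were lost. That of ZNF480 in OCI-Ly1 was also lost with library size alone. The 2 lines have separate controls. The difference between them, the log2 change in OCI-Ly1 minus that in TMD8, was tested in the fit of all 18 libraries. At 500 nM it was called above 0 for 1 gene and below 0 for 5 of the 35, 17.1% against 46.4% of all genes tested. At 150 nM it was above 0 for 3 genes and below 0 for 1, 11.4% against 23.3%.
ZNF614 was the gene above 0 at 500 nM, by 0.38 (SE 0.11, edgeR adjusted p = 0.0043): it fell in TMD8, while in OCI-Ly1 it stood at 47.5, 52.1 and 55.1 CPM with DMSO, against 53.5, 50.9 and 52.8 treated, fully overlapping. ZNF347 (-1.08, SE 0.34, edgeR adjusted p = 0.012) was called lower in OCI-Ly1 by edgeR but not by DESeq2, and had 1.33, 2.13 and 2.46 CPM in TMD8 with DMSO against 2.44, 2.62 and 3.48 at 500 nM, a rise that missed the threshold (adjusted p = 0.11). For ZNF160 (-1.06, SE 0.29, edgeR adjusted p = 0.0046), OCI-Ly1 had 51.1, 52.6 and 56.8 CPM with DMSO, against 57.4, 56.0 and 54.0 treated, which overlapped.
For ZNF761 (-0.65, SE 0.15, edgeR adjusted p = 0.0010), OCI-Ly1 had 62.3, 68.2 and 63.2 CPM with DMSO, against 59.0, 57.8 and 60.0 treated, lower in each library but not called (adjusted p = 0.076). ZNF432 (-0.57) and ZNF578 (-0.45) were the other genes below 0, the first lost without the third TMD8 library with DMSO or at 500 nM and the second without the first OCI-Ly1 library at 500 nM or the first TMD8 library with DMSO. ZNF614 kept its difference under every setting. The 5 genes below 0 lost theirs on log2(TPM + 1), where 16 differences were above 0 and 0 below and the median of all genes was 0.38, while on the centred scale 1 was above and 17 below. Of all 16604 genes tested, 9104 were called above 0 and 1112 below on log2(TPM + 1), and 4351 and 5670 on the centred scale.

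**Figure D4:**
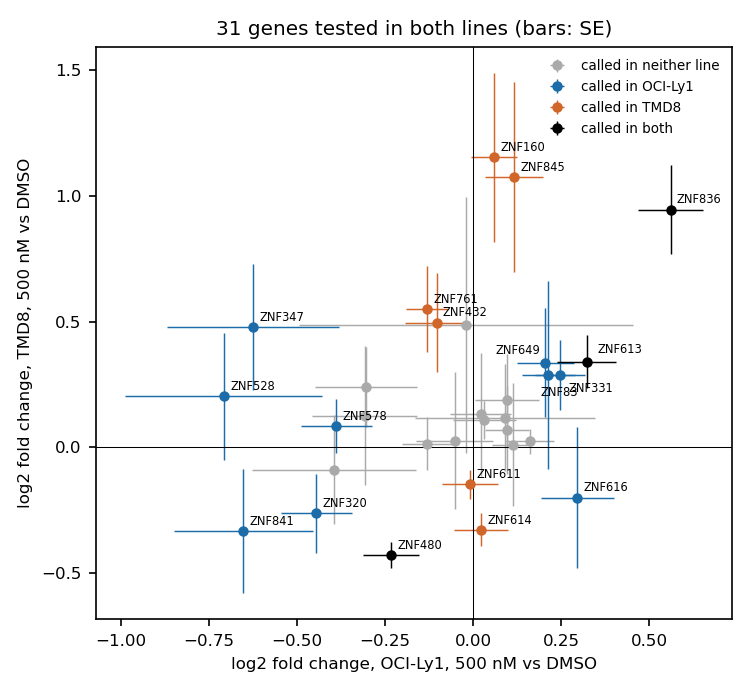
Log2 fold change at 500 nM against DMSO (bars, SE) of the 31 genes tested in both lines, OCI-Ly1 on the horizontal and TMD8 on the vertical axis, coloured by the line in which edgeR called the gene. ZNF836 and ZNF613 lie in the upper right and ZNF480 in the lower left, and ZNF160 and ZNF845 stand highest, at 1.15 and 1.07 in TMD8.

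The machinery that these proteins recruit was measured through 31 genes for TRIM28, its partners and the enzymes of H3K9 and DNA methylation. In TMD8 at 500 nM, 26 of the 31 fell and 2 rose (ATRX and MPHOSPH8), a median log2 change of -0.35. That is 90.3% called where 60.7% of all genes were. At 150 nM 23 fell and 1 rose, 77.4% against 44.2%. These genes were abundant: even SUV39H1 had 44.2, 41.0 and 44.9 CPM with DMSO in TMD8, where the median of all tested genes was 20.9. A change of a given size was thus likely easier to detect than in a typical gene. In OCI-Ly1 14 fell and 1 rose (MORC2) at 500 nM, 48.4% against 53.6% of all genes, with a median of -0.14, and 0 were called at 150 nM. TRIM28 in TMD8 went from 2406 ± 83.6 CPM with DMSO to 1852 ± 7.55 at 500 nM, a change of -0.38 (SE 0.05, edgeR adjusted p = 5.8e-06), and in OCI-Ly1 from 462 ± 35.7 to 404 ± 6.03, a change of -0.19 (SE 0.06, adjusted p = 0.011).
The largest falls in TMD8 were those of SUV39H1, an H3K9 methyltransferase (-0.85), CBX3, a heterochromatin protein 1 (-0.79), CHD4, the NuRD remodeler (-0.79), and HDAC2, a deacetylase (-0.74). In OCI-Ly1 they were CHD3 (-0.48), CHD4 (-0.38), FAM208A, a subunit of the HUSH silencing complex (-0.37), and CBX3 (-0.36). The OCI-Ly1 count moved to 8 lower and 3 higher without scaling beyond library size and to 7 and 3 on log2(TPM + 1), where its median was -0.001; in TMD8 20 to 29 fell under every setting. With DMSO, 16 of the 31 were higher in OCI-Ly1 and 9 lower, a median log2 difference of 0.18. That is 80.6% called against 76.7% of all genes tested, a share near the background, with 51.6% higher against 37.8% and 29% lower against 39%. TRIM28 was among the 9, at 444 ± 36.1 CPM in OCI-Ly1 against 2519 ± 107 in TMD8, and CBX3 among the 16, at 594 ± 19.3 against 208 ± 11.

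PPP2R1A, the scaffold subunit of protein phosphatase 2A, lies between ZNF836 and ZNF766 and is no zinc-finger gene. It did not follow ZNF836: in TMD8 it had 783, 773 and 768 CPM with DMSO, against 591, 606 and 588 at 500 nM, a change of -0.38 (SE 0.05, edgeR adjusted p = 2.5e-06). In OCI-Ly1 it went from 269.6, 254 and 225 CPM to 202, 210 and 213, a change of -0.26 (SE 0.07, adjusted p = 0.0069). The list of neighbouring genes also holds genes outside the stretch of the 37, such as SIGLEC10 and CNOT3. Of its 24 genes tested in OCI-Ly1, which are not among the 37, 4 rose and 12 fell at 500 nM (66.7% against 53.6% of all genes). The pseudogenes ZNF321P (-0.51) and ZNF702P (-0.64) were among those that fell. In TMD8, 3 of 25 rose and 7 fell, 40% against 60.7%.

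Other zinc-finger genes gave the background of the family. At 500 nM in OCI-Ly1, 49.4% of 397 other tested ZNF genes were called, 134 higher and 62 lower, and 33.3% of 27 genes of the separate cluster at 19p12, 8 higher and 1 lower. In TMD8 the shares were 43.9% of 360 and 21.7% of 23. With DMSO, 24 of the 27 genes at 19p12 were higher in OCI-Ly1, with a median log2 difference of 3.11, and 193 of 405 other ZNF genes were, with a median of 0.15. These are 88.9% and 47.7%, against 37.8% of all genes tested. The higher level in OCI-Ly1 was thus measured at 19p12 as well.

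**Figure D5:**
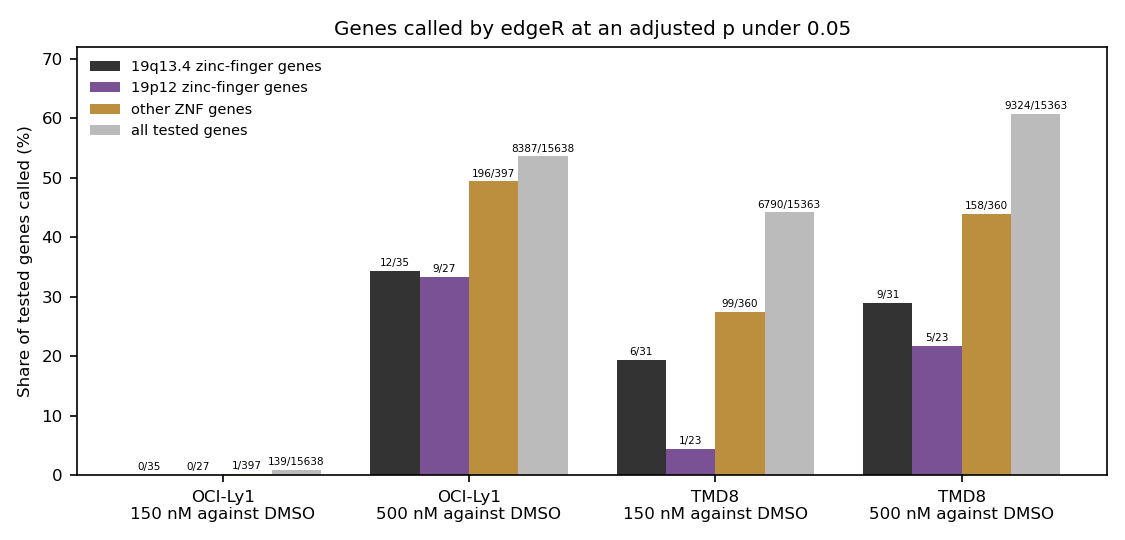
Share of tested genes called by edgeR (adjusted p under 0.05) for each dose against DMSO in each line, for the 19q13.4 genes, the 19p12 genes, other ZNF genes and all tested genes; the numbers above the bars are genes called of genes tested. At 500 nM the 19q13.4 bar is lower than the bar of all genes, at 34.3% against 53.6% in OCI-Ly1 and 29% against 60.7% in TMD8. At 150 nM it is 19.4% against 44.2% in TMD8. In OCI-Ly1 at 150 nM it is 0 of 35 against 0.889%, too low a share to compare. The cluster was measured less precisely than other genes in TMD8.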

How the data were processed

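For each line the authors deposited a table of estimated counts and a table of TPM, per gene symbol and library. The submitters' processing notes name kallisto 0.46.0, R 4.3.1, DESeq2 1.40.2 and hg19; which tool used that build is not given in the sources used here. Estimated counts were rounded to whole numbers, filtered with filterByExpr and scaled by TMM, and tested with the quasi-likelihood test of edgeR 4.0.16 (R 4.3.3) with Benjamini-Hochberg adjustment over all genes tested. Calls needed an adjusted p under 0.05. Doses were compared in a fit of the 9 libraries of each line, and lines in a fit of all 18, where CPM carry another scale. SE is the size of the log2 change divided by the root of F. Alternatives were library size alone, DESeq2 1.42.0, no low-count filter, limma 3.58.1 on log2(TPM + 1), the same centred on the library median, log2(TPM + 0.1), a replicate block and each library left out. The rule gave values by library for the 5 largest called rises and falls per line at 500 nM (at least 1 CPM in the higher group), the 3 largest called line differences each way, and the highest and lowest genes by TPM. Other genes named come from fixed lists, up to 4 per list and contrast. Library values for ZNF845, ZNF83, ZNF808, PPP2R1A and ZNF611 between the lines were added after values were seen. The scripts were tested on simulated data. The members and lists were chosen with earlier results of these data known. Library totals were at least 9550092 counts.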

Additional observations from a re-analysis of the deposited data

Results flagged for a closer look

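Changes under JIB-04 that differed between the lines, by the edgeR test of the change in OCI-Ly1 minus that in TMD8, belonged to 8 genes. At 150 nM the log2 difference was -0.91 for ZNF160, 0.35 for ZNF480, 0.31 for ZNF611 and 0.39 for ZNF614. At 500 nM it was -1.06 for ZNF160, -1.08 for ZNF347, -0.57 for ZNF432, -0.45 for ZNF578, 0.38 for ZNF614 and -0.65 for ZNF761. Without the third TMD8 DMSO library the difference for ZNF160 was -1.66 at 500 nM and -1.51 at 150 nM. Without the first, that of ZNF160 was -0.80 and -0.65. Its call at 150 nM was lost without the first or second TMD8 DMSO library or the second or the third TMD8 library at 150 nM, and that of ZNF611 without the first OCI-Ly1 DMSO library or the third 150 nM library of either line.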

How the results depend on the processing

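At 500 nM in OCI-Ly1, genes called higher numbered 11 with library size alone, 11 with log2(TPM + 1), 11 with log2(TPM + 0.1) and 2 once centred, and lower 3, 2, 2 and 11. All genes tested gave 5472, 5739, 5693 and 2902 higher, and 3080, 2240, 2240 and 6079 lower. Against 150 nM, higher numbered 5, 5, 5 and 1, and lower 0 on both uncentred TPM scales and 15 centred. All genes tested gave 5039, 4961, 4922 and 2519 higher, with 1860 and 1854 lower uncentred and 5403 centred. In TMD8 at 150 nM, higher numbered 5 with library size alone, 0 by DESeq2 and on both uncentred TPM scales, and 1 centred. All genes tested gave 4098 with library size alone, 2441 by DESeq2, 1129 and 1204 uncentred, and 2382 centred. At 500 nM, higher numbered 1 and 2 on log2(TPM + 1) and log2(TPM + 0.1), and lower 7 and 7. All genes tested gave 1751 and 1764 higher, and 7581 and 7576 lower. From 150 to 500 nM, higher numbered 0 with library size alone, DESeq2, both uncentred TPM scales and the replicate block, and lower 2 on log2(TPM + 0.1). All genes tested gave 2191, 1552, 464, 422 and 2189 higher in that order, and 4146 lower on log2(TPM + 0.1). For the line difference at 150 nM, lower numbered 0 on the 3 TPM scales. Of all genes, 595 were lower on log2(TPM + 1), 1367 centred and 586 on log2(TPM + 0.1). At 500 nM, higher numbered 2 by DESeq2, without the filter and with the block, 16 on log2(TPM + 1) and 11 on log2(TPM + 0.1), and lower 0, 17 and 0 on log2(TPM + 1), centred and log2(TPM + 0.1). For the lines with DMSO, lower numbered 2, 10 and 2 on those scales, and over all genes 2906, 7594 and 2963. For the line difference at 500 nM, higher over all genes numbered 4755 by DESeq2, 4813 without the filter and 4817 with the block. On log2(TPM + 1) and log2(TPM + 0.1) it numbered 9104 and 8824. Lower over all genes numbered 1112, 5670 and 949 on log2(TPM + 1), centred and log2(TPM + 0.1). The cause was not tested. Signs reversed on log2(TPM + 1) and log2(TPM + 0.1) for ZNF613 in TMD8 at 500 nM (-0.0279 and -0.035), ZNF665 (0.39 and 0.61) and ZNF677 (0.22 and 0.44) between the lines, and for the line difference at 500 nM of ZNF160 on the first (0.065) and ZNF578 on the second (0.0078).

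Leaving out 1 library gave 0 to 0 higher and 0 to 0 lower in OCI-Ly1 at 150 nM, 2 to 7 and 3 to 7 at 500 nM, and 1 to 3 and 3 to 7 between doses. In TMD8 it gave 0 to 2 and 1 to 3 at 150 nM, 3 to 6 and 2 to 3 at 500 nM, and 0 to 2 and 0 to 1 between doses. The line difference gave 2 to 3 and 0 to 1 at 150 nM and 1 to 3 and 4 to 6 at 500 nM, and the lines with DMSO 22 to 23 and 4 to 6.

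Whether replicate numbers pair the libraries was not settled. Deviations of same-numbered libraries had correlations of -0.0668 to 0.259 (OCI-Ly1) and -0.0696 to 0.18 (TMD8). Those of different number had -0.287 to 0.0709 and -0.222 to 0.16, which overlap. In OCI-Ly1 the same-numbered values were 0.259, 0.0367 and 0.259 between DMSO and 150 nM. Between DMSO and 500 nM they were -0.0668, -0.00329 and -0.0335. With the replicate block, OCI-Ly1 at 500 nM had 7 higher and 5 lower, TMD8 at 500 nM 7 and 3, and the lines with DMSO 23 and 4.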
